A study of Rattus norvegicus with 16 samples.

Results

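The vacuolar proton pump, or V-ATPase, was examined here through 10 of its subunit genes, Atp6v0a1, Atp6v0b, Atp6v0c, Atp6v0d1, Atp6v1a, Atp6v1b2, Atp6v1c1, Atp6v1d, Atp6v1e1 and Atp6v1h, out of 35190 gene and transcript names on the array. The genes were selected on a readout of the same data: the signals of Atp6v0d1 and Atp6v0a1 were lower after Prr7 knockdown, and the question was whether that fall extended to the rest of the pump. The array held 15 probes with one of these gene names, and all 15 were bright enough to be tested. The samples were 16 primary hippocampal neuron cultures, prepared from Sprague-Dawley rats at embryonic day 18 to 19, in 4 groups of 4. One group (knockdown) carried a lentivirus with a short hairpin RNA against the coding region of Prr7, and one (overexpression) a lentivirus with full-length Prr7. The controls carried a lentivirus with a non-targeting hairpin (nontargeting) or no virus (not transduced). Each group was 1 culture type with 1 construct, so that only 1 Prr7 hairpin was tested. No probe carried the name Prr7, and the extent of the knockdown and of the overexpression was not measured here.

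The V-ATPase is a rotary pump that uses ATP to move protons into lysosomes, endosomes and synaptic vesicles. Its V1 sector lies in the cytosol and splits ATP, and its V0 sector lies in the membrane and carries the protons across. In neurons the proton gradient drives the loading of neurotransmitters into synaptic vesicles and keeps lysosomal enzymes active, and on lysosomes the pump takes part in nutrient sensing by mTORC1. Several subunits are made from more than 1 gene, and a1 is the form of subunit a found on synaptic vesicles in brain.

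Knockdown and nontargeting samples lay on 1 slide, and overexpression and not transduced samples on the other, so slide and group cannot be told apart in any comparison across the slides. Each of the 8 arrays held 2 samples of 1 group, one per dye. Between 50.2% and 70.5% of spots per sample were well above background, the median net signal ran from 73.2 to 150 and no spot was saturated. Neuronal RNAs were present: 9 of 10 neuronal markers had a tested probe, with a mean log2 intensity of 13.78 to 13.95 in knockdown, 13.89 to 13.97 in overexpression, 13.31 to 13.89 in nontargeting and 13.82 to 14.48 in not transduced samples. Astrocyte markers (7 tested) were bright too, at 12.62 to 12.73, 13.04 to 13.39, 12.41 to 12.82 and 12.41 to 13.21 in the same order. The cultures were therefore not shown to hold neurons alone. The number of arrays limits the precision of every difference. P-values rest on the spread within groups, which holds differences between cultures and between arrays together.

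The 3 probe sequences printed here are shown because the readings of subunits d, a and B rest on them, and capitals are not used. They are the array's own sequences, with the array's positions on the rn4 build.

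Atp6v0d1 (A_44_P326198, chr19:35342854-35343006, minus strand): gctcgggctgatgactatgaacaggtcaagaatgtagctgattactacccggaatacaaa

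Atp6v0a1 (A_44_P402760, chr10:90070959-90071018, plus strand): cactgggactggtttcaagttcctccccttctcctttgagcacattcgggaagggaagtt

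Atp6v1b2 (A_44_P149114, chr16:22325706-22327663, minus strand): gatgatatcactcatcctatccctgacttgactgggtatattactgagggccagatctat

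Each probe is 60 bases long and has at least 1 forward reading frame without a stop codon. The Atp6v0d1 probe covers 153 bases of genome and the Atp6v1b2 probe 1958 bases, so the match of each to the genome is split. The second Atp6v0a1 probe, A_44_P293791, lies 730 bases further along the same strand (chr10:90071749-90071809). Atp6v0d1 is read by that 1 probe alone, whereas Atp6v0a1, Atp6v1b2 and Atp6v1h have 2 probes each and Atp6v1a has 3.

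Subunit d1, the V0 protein that couples the rotor to the central stalk, was low in every knockdown sample and nowhere else. Its normalized log2 intensity was 12.14, 11.97, 12.30 and 12.16 in knockdown samples, 14.47, 14.47, 14.71 and 14.77 in overexpression samples, 14.81 and 14.81 in nontargeting samples and 14.52, 14.71 and 14.54 in not transduced samples. The highest knockdown value lay more than 2 log2 units under the lowest value of the other groups. The spot of this probe was flagged by the scanner software as an outlier in nontargeting replicates 1 and 2 and in not transduced replicate 1, and these 3 values were left out. Their readings with the flag ignored were 13.61 and 13.99 in the nontargeting samples and 14.30 in the not transduced sample, still above all knockdown samples.

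Atp6v0d1 averaged 12.14 ± 0.13 in knockdown (SD, n = 4), 14.60 ± 0.16 in overexpression (n = 4), 14.81 ± 0.0055 in nontargeting (n = 2) and 14.59 ± 0.11 in not transduced samples (n = 3). The fitted difference for Atp6v0d1 was -2.67 (SE 0.15) between knockdown and nontargeting, which is 6.35-fold lower. It was -2.45 (SE 0.13) against not transduced and -2.46 (SE 0.12) against overexpression. With the flagged spots kept, the difference from nontargeting was -2.16 (SE 0.25). These values chose the gene and are given without a test. They are also visible before any normalization, with mean spot signals of 3206 to 6147 in knockdown samples against 7217 to 33776 in nontargeting and 15556 to 39367 in not transduced samples.

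Subunit a1, the V0 membrane protein that forms the path of the protons, followed a graded order at both probes. At A_44_P293791 the log2 intensity was 11.70, 11.41, 11.98 and 11.998 in knockdown samples, 13.10, 13.38, 13.14 and 13.39 in overexpression samples, 12.35, 12.48, 12.49 and 12.74 in nontargeting samples and 13.50 and 13.55 in the 2 unflagged not transduced samples. At A_44_P402760 it was 10.35, 10.26, 10.24 and 10.22 in knockdown, 11.15, 11.01, 11.09 and 10.94 in overexpression, 10.56, 10.69, 10.65 and 10.67 in nontargeting, and 11.05, 10.92, 11.23 and 11.11 in not transduced samples. At either probe the knockdown samples were lowest, the nontargeting samples lay between them and the other groups, and overexpression and not transduced samples shared the top.

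The means at A_44_P293791 were 11.78 ± 0.28 in knockdown, 13.25 ± 0.16 in overexpression, 12.51 ± 0.17 in nontargeting (SD, n = 4 each) and 13.52 ± 0.03 in not transduced samples (n = 2). The knockdown differences of Atp6v0a1, which also chose the members, were -0.74 (SE 0.18) and -0.37 (SE 0.11) against nontargeting at the 2 probes, and -1.75 (SE 0.22) and -0.81 (SE 0.11) against not transduced. Against overexpression they were -1.48 (SE 0.18) and -0.78 (SE 0.11). In the authors' deposited matrix, which centres each sample on its median alone, the knockdown minus nontargeting difference at A_44_P402760 was -0.15, against -0.37 here, and the mean spot signals of the 2 groups overlapped there (897 to 1662 in knockdown and 818 to 1982 in nontargeting samples).

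**Figure D1:**
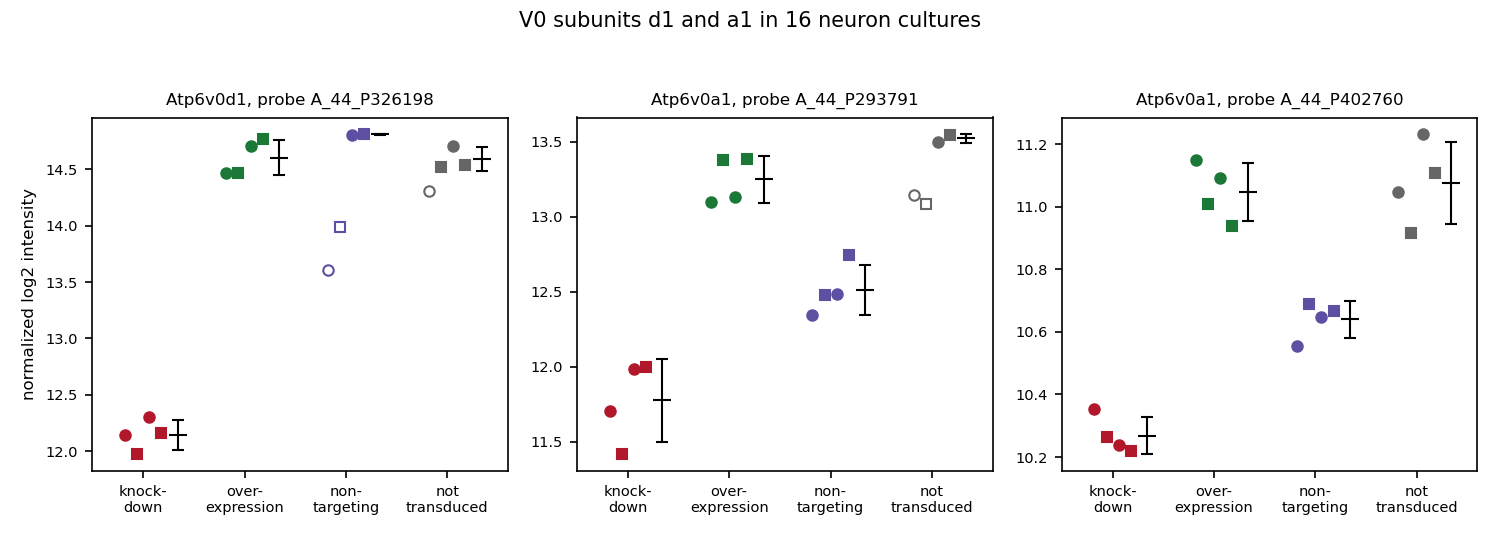
Normalized log2 intensity (vertical axis) of the Atp6v0d1 probe and both Atp6v0a1 probes in each of the 16 cultures, by group. Circles are Cy3 samples, squares Cy5 samples, open symbols spots flagged as outliers and left out of the mean, and bars the mean and SD. Atp6v0d1 is low in the 4 knockdown samples alone (11.97 to 12.30), whereas Atp6v0a1 is also lower in nontargeting than in not transduced samples at both probes.

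The remaining differences of Atp6v0a1 and Atp6v0d1 are built from the same group levels that chose these genes, and are likewise given without a test. Nontargeting minus not transduced was -1.01 (SE 0.22) for Atp6v0a1 at A_44_P293791 and -0.44 (SE 0.11) at A_44_P402760. Overexpression minus nontargeting was 0.74 (SE 0.18) and 0.41 (SE 0.11) at the same probes. Both comparisons cross the slides and share the nontargeting samples. Overexpression minus not transduced, on 1 slide, was -0.27 (95% interval -0.74 to 0.20) and -0.03 (-0.26 to 0.20). For Atp6v0d1 nontargeting minus not transduced was 0.22 (95% interval -0.12 to 0.56), and -0.21 with the flagged spots kept, so its sign depends on those spots.

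No probe that carries the name of one of the other 8 genes passed the test between knockdown and any other group. The 12 probes of these 8 genes gave knockdown minus nontargeting differences of -0.61 to 0.37, with adjusted p-values of 0.055 to 0.97. Over all 27294 probes tested, 10.8% were called lower and 10.3% higher in that comparison. At those shares 12 probes are too few for 0 calls in either direction to be a result about the pump. At an unadjusted p under 0.05, 3 of the 12 probes would have counted. The lowest bound of any 95% interval among them was -1.12, a 2.17-fold fall, for Atp6v1b2, so that a fall of the size seen for Atp6v0d1 lay outside the interval of every one of these probes. The smaller falls of Atp6v0a1 did not. Its -0.74 lay inside the intervals of both Atp6v1b2 probes and of Atp6v1a probe A_44_P347007. Its -0.37 also lay inside those of Atp6v0b, Atp6v1e1 and Atp6v1h probe A_44_P1043555. The median of the 12 differences was -0.03, beside -0.02 over all probes.

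Against not transduced samples, where 5.36% of all probes were called lower and 4.76% higher in knockdown, the same 12 probes gave -0.48 to 0.28 and no call (0 of 12 also at an unadjusted p under 0.05). Against overexpression samples, with 4.76% of all probes called lower and 5.53% higher, they gave -0.41 to 0.13 and again no call (0 of 12 unadjusted). At these shares too, 0 of 12 calls is no result about the pump.

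**Figure D2:**
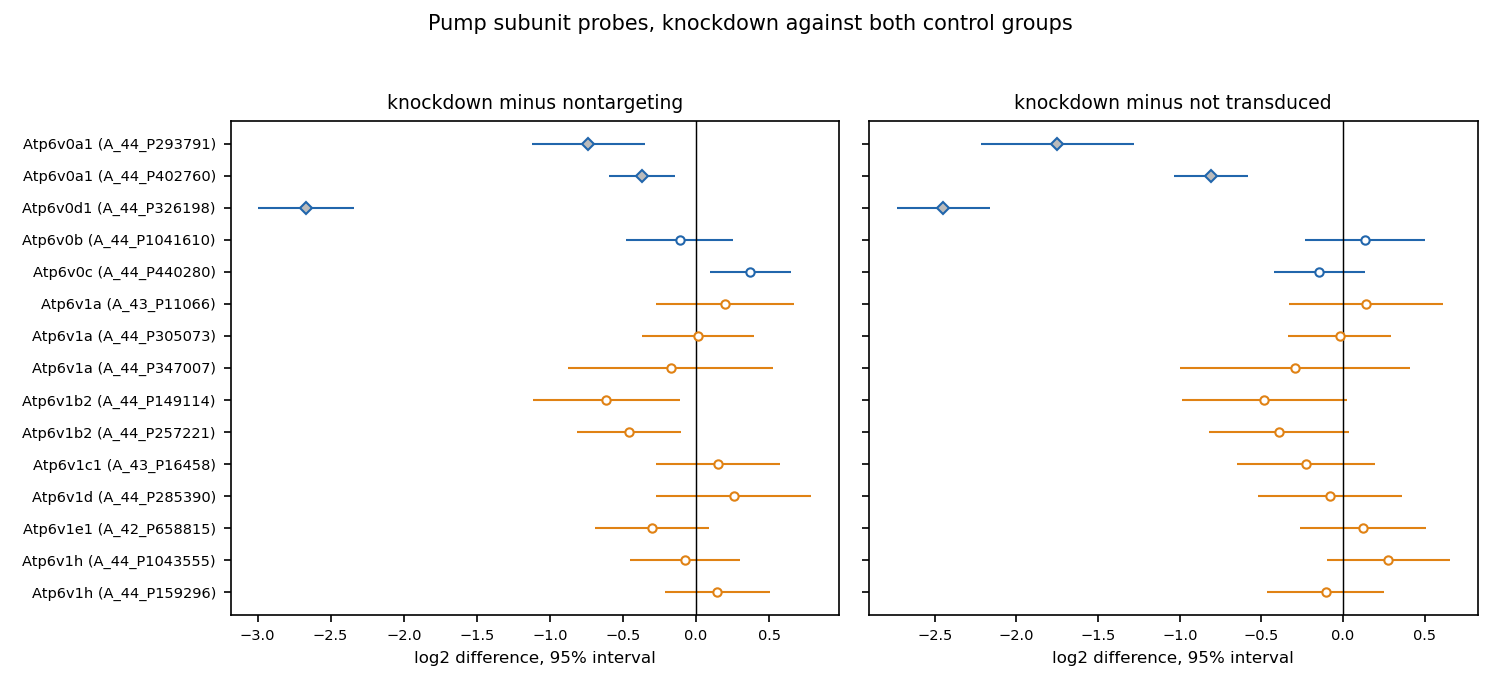
Log2 differences (horizontal axis) of the 15 probes of the 10 genes, knockdown minus nontargeting (left) and knockdown minus not transduced (right), with 95% intervals from the limma fit. Blue marks V0 genes and orange V1 genes; grey diamonds are Atp6v0d1 and Atp6v0a1, whose fall chose the genes and which are shown without a test, and open circles did not pass it. The Atp6v0d1 probe lies at -2.67 and -2.45, while the 12 probes of the other genes lie between -0.61 and 0.37.

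Of the V1 sector, subunit B, encoded in brain by Atp6v1b2 and part of the ring that splits ATP, came nearest to a fall. At A_44_P149114 its log2 intensity was 11.07, 10.79, 11.19 and 10.88 in knockdown samples, 11.26, 11.01, 11.47 and 11.72 in overexpression samples, 11.30, 11.47, 12.03 and 11.59 in nontargeting samples and 11.31, 11.41, 11.83 and 11.31 in not transduced samples. All 4 knockdown values lay under the 8 control values, but overlapped with overexpression. The difference from nontargeting was -0.61 (SE 0.24, adjusted p = 0.082), and at the second probe, A_44_P257221, it was -0.46 (SE 0.16, adjusted p = 0.066) with overlapping samples. Neither passed the test as fitted. The first passed under 3 of 28 alternative settings (lowest adjusted p = 0.011) and the second under 4 of 29 (lowest 0.020). Both passed without the random block for the array, with a replicate block and without nontargeting replicate 1.

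The remaining V1 genes gave no call and no common direction in knockdown against nontargeting. Atp6v1a, the catalytic subunit A, gave 0.20 (SE 0.22), 0.02 (SE 0.18) and -0.17 (SE 0.33) at its 3 probes. Atp6v1c1 and Atp6v1d gave 0.15 (SE 0.20) and 0.26 (SE 0.25). They encode subunit C, which tethers the sectors to each other, and subunit D, part of the central stalk. Atp6v1e1, a peripheral stalk subunit, gave -0.30 (SE 0.18). Atp6v1h, a regulatory subunit that silences free V1, gave -0.07 (SE 0.18) and 0.15 (SE 0.17). The adjusted p-values of these 8 probes ran from 0.28 to 0.97.

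The knockdown and nontargeting samples behind these V1 values overlapped, apart from those of Atp6v1d. Atp6v1c1 read 12.43, 12.31, 12.66 and 12.39 in knockdown, 12.73, 12.73, 12.64 and 12.67 in overexpression, 11.99, 12.08, 12.82 and 12.30 in nontargeting and 12.73, 12.65, 12.92 and 12.39 in not transduced samples. The nontargeting samples alone spanned the knockdown values. Atp6v1e1 read 11.72, 11.69, 11.93 and 11.86 in knockdown, 11.45, 11.40, 12.03 and 11.93 in overexpression, 11.73, 11.83, 12.40 and 12.44 in nontargeting and 11.73, 11.65, 11.61 and 11.73 in not transduced samples. In nontargeting, replicates 3 and 4 were above every other sample of Atp6v1e1. Atp6v1d read 12.03, 12.12, 12.22 and 12.23 in knockdown samples, against 11.97 and 11.81 in the 2 unflagged nontargeting samples, without overlap. With the flagged spots kept, its difference was 0.50 (SE 0.21, adjusted p = 0.12).

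A further 6 probes name a pump subunit in their description only, and were looked up after their values were seen. Of these 4 were bright enough to be tested, and 3 passed in 1 comparison each. Over all probes 5.53% were higher in knockdown than in overexpression and 5.36% lower in knockdown than in not transduced samples. In overexpression minus nontargeting 11.9% were lower. With so few probes, read in every comparison, the count is no result about the pump. TC577366 (subunit C1) was higher in knockdown than in overexpression samples (0.44, SE 0.13, adjusted p = 0.045), and read 12.45, 12.47, 12.63 and 12.70 in knockdown samples against 12.005, 12.17, 12.37 and 12.32 in nontargeting samples (difference 0.34, SE 0.13, adjusted p = 0.081). The probe named Atp6v1c1 had the opposite sign in knockdown minus overexpression and did not pass (-0.25, SE 0.20, adjusted p = 0.48). TC637205 (the renin receptor, an accessory protein of the pump) was lower in knockdown than in not transduced samples (-0.44, SE 0.11, adjusted p = 0.025). It read 10.42, 10.38, 10.72 and 10.52 in knockdown samples against 10.91, 10.89, 11.02 and 10.97 in not transduced samples, without overlap, and gave -0.32 (SE 0.12, adjusted p = 0.061) against nontargeting. Both probes named Atp6ap2, the gene of that protein, did not pass against not transduced samples. They gave -0.32 (SE 0.14, adjusted p = 0.17) and -0.34 (SE 0.18, adjusted p = 0.26). LOC501979 (similar to subunit F) was lower in overexpression than in nontargeting samples (-0.47, SE 0.14, adjusted p = 0.022), and gave -0.33 (SE 0.14, adjusted p = 0.096) in knockdown minus nontargeting. TC630287 passed in no comparison.

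In the V0 sector neither gene of the proteolipid ring passed the test in knockdown. Atp6v0b, a c-like ring subunit, read 15.56, 15.44, 15.66 and 15.48 in knockdown, 15.70, 15.45, 15.29 and 15.34 in overexpression, 15.50, 15.66, 15.72 and 15.71 in nontargeting and 15.78, 15.54, 15.05 and 15.22 in not transduced samples, with overlap between all groups. It gave -0.11 (SE 0.17, adjusted p = 0.71) in knockdown against nontargeting. Atp6v0c, which encodes the c subunit that makes up most of the ring, read 15.67, 15.70, 15.69 and 15.68 in knockdown samples, 15.76, 15.63, 15.64 and 15.76 in overexpression samples, 15.03, 15.37, 15.34 and 15.52 in nontargeting samples and 15.84, 15.75, 15.81 and 15.92 in not transduced samples. Knockdown and overexpression samples overlapped, and the nontargeting samples were the lowest. Knockdown minus nontargeting was 0.37 (SE 0.13) and missed the threshold (adjusted p = 0.055). It passed under 7 of 29 settings (lowest adjusted p = 0.0035), among them without nontargeting replicate 2 or 4.

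Among the probes that carry a gene name of the other 8 genes, that of Atp6v0c was the only one called in any comparison as fitted. Atp6v0b gave -0.20 (adjusted p = 0.45) in overexpression minus nontargeting, but was called lower with the scanner's processed signal and in the authors' deposited matrix (down to -0.60, lowest adjusted p = 0.028). For Atp6v0c, nontargeting minus not transduced was -0.51 (SE 0.13, adjusted p = 0.010) and overexpression minus nontargeting 0.38 (SE 0.13, adjusted p = 0.046). Both Atp6v0c values depend on the scaling of the arrays. With the scanner's own processed signal they were -0.23 (adjusted p = 0.34) and 0.01 (adjusted p = 0.96), and in the authors' deposited matrix -0.26 (adjusted p = 0.43) and 0.02 (adjusted p = 0.95). Copies may be a limit for some of these genes: the RefSeq table lists 2 pseudogenes of Atp6v0c and 1 each of Atp6v1a and Atp6v1e1. Whether the probes also match these pseudogenes was not tested.

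**Figure D3:**
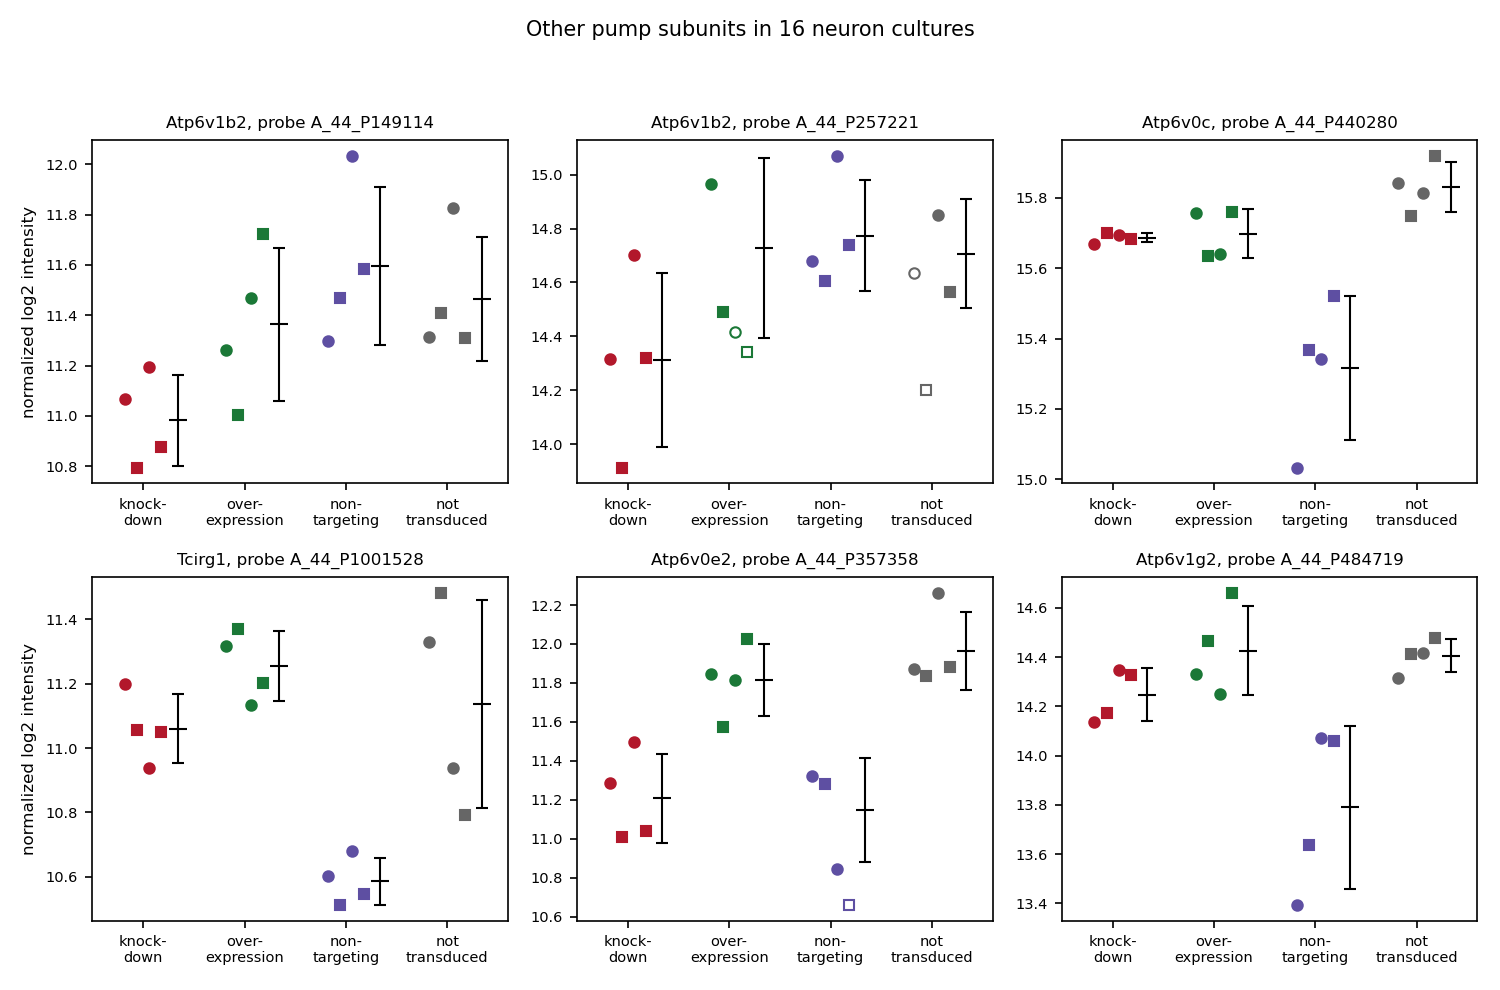
Normalized log2 intensity (vertical axis) of both Atp6v1b2 probes, Atp6v0c, Tcirg1, Atp6v0e2 and Atp6v1g2 in each culture. Symbols and bars are as in the plot of Atp6v0d1 and Atp6v0a1. Tcirg1 is lowest in the nontargeting samples (10.51 to 10.68), without overlap with knockdown samples (10.94 to 11.20).

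The rest of the pump was read by 14 tested probes of 12 further genes, out of 19 probes of 16 genes. Probes of Atp6v0d2, Atp6v1b1 and Atp6v1g3, and 1 of 2 of Atp6v0a2, were too dim. Atp6v1f, a central stalk subunit, was bright in all 16 samples but had only 9 unflagged values. With its flagged spots kept, Atp6v1f gave -0.17 (SE 0.25, adjusted p = 0.70) in knockdown minus nontargeting.

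Of these 14 further probes, 0 were lower in knockdown than in nontargeting samples and 1 was higher. Over all probes 10.8% were lower and 10.3% higher, and with 14 probes neither count is a result about the pump. The higher probe was that of Tcirg1, the a3 form of subunit a, known from osteoclasts. It read 11.20, 11.06, 10.94 and 11.05 in knockdown samples, 11.32, 11.37, 11.13 and 11.20 in overexpression samples, 10.60, 10.51, 10.68 and 10.55 in nontargeting samples and 11.33, 11.48, 10.94 and 10.79 in not transduced samples. The difference was 0.47 (SE 0.15, adjusted p = 0.038), and leaving out knockdown replicate 1 or 4, nontargeting replicate 2 or 4, overexpression replicate 1 or 4 or not transduced replicate 3 took its adjusted p above the threshold, to at most 0.074. Against not transduced samples the difference was -0.08 (SE 0.15, adjusted p = 0.81).

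Atp6v0e2, the brain form of the small V0 subunit e, was the 1 further probe of 14 called lower in knockdown than in not transduced samples, where 5.36% of all probes were. It read 11.29, 11.01, 11.50 and 11.04 in knockdown samples, 11.85, 11.57, 11.81 and 12.02 in overexpression samples, 11.32, 11.28 and 10.84 in nontargeting samples and 11.87, 11.84, 12.26 and 11.88 in not transduced samples. Knockdown minus not transduced was -0.75 (SE 0.20, adjusted p = 0.028), and nontargeting minus not transduced was -0.90 (SE 0.20, adjusted p = 0.0062). Knockdown and nontargeting samples overlapped (difference 0.14, SE 0.20, adjusted p = 0.69). The call in knockdown was lost without knockdown replicate 2 or 4 or not transduced replicate 2 or 3 (adjusted p up to 0.069).

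The nontargeting samples differed from the not transduced samples at several pump genes. Without Atp6v0d1 and Atp6v0a1, 5 of the 26 tested probes were lower in nontargeting than in not transduced samples and 0 were higher, where 11.1% of all probes were lower and 11.2% higher. The 5 were Atp6v0c, Atp6v0e2, Tcirg1 (-0.55, SE 0.15, adjusted p = 0.018), 1 of 2 probes of Atp6v1g2 (-0.62, SE 0.16, adjusted p = 0.013) and 1 of 2 of Atp6ap2 (-0.43, SE 0.14, adjusted p = 0.038). Atp6v1g2 encodes the brain form of stalk subunit G, and Atp6ap2 an accessory protein of the pump. The median of the 26 differences was -0.07, beside 0.03 over all probes.

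Overexpression minus nontargeting, which shares the nontargeting samples with that comparison, gave 4 probes higher and 0 lower of 26, where 10.6% of all probes were higher and 11.9% lower. These were the probes of Atp6v0c, Atp6v0e2 and Tcirg1 and the same probe of Atp6v1g2. In overexpression against not transduced samples, on the same slide, 0 of 26 passed with limma and 0 at an unadjusted p under 0.05, and the differences ran from -0.21 to 0.17. Over all probes that comparison called 0.00366% higher and 0% lower, so a count of 0 is what the array as a whole gave and is no result about the pump.

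**Figure D4:**
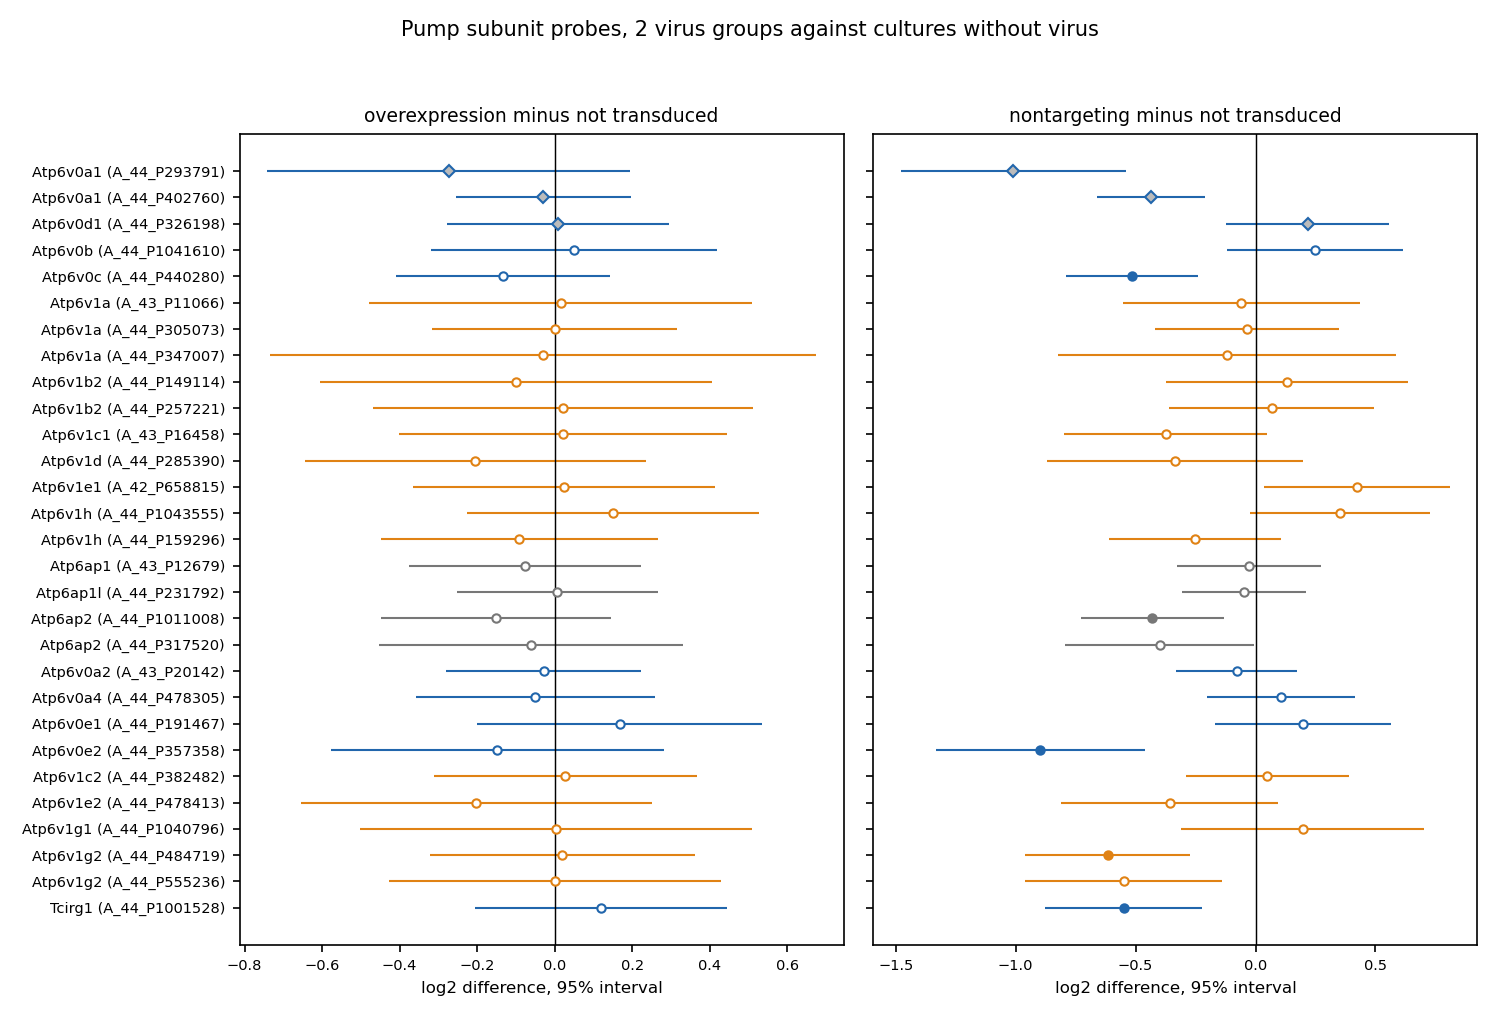
Log2 differences (horizontal axis) of the 29 tested probes of pump genes, overexpression minus not transduced (left) and nontargeting minus not transduced (right), with 95% intervals. Blue marks V0 genes, orange V1 genes and grey accessory genes, filled circles passed the test at an adjusted p under 0.05, and grey diamonds are Atp6v0d1 and Atp6v0a1, shown without a test. No circle is filled on the left and 5 are on the right, all below 0.

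Interneuron markers moved in the same comparisons. Of 6 tested, 4 were higher in knockdown than in nontargeting, where 10.3% of all probes were higher. In nontargeting against not transduced samples 5 were lower, where 11.1% of all probes were lower. Their mean log2 intensity was 10.64 to 11.12 in knockdown, 11.04 to 11.52 in overexpression, 9.90 to 10.27 in nontargeting and 11.07 to 11.84 in not transduced samples. Of the 9 neuronal markers tested, 2 were higher and 1 lower in knockdown than in nontargeting, beside 10.3% and 10.8% over all probes. Of the microglial markers (6 tested) none passed in either comparison. In such mixed cultures fewer cells of a type and less RNA per cell cannot be told apart, and the part of the interneuron shift in the values of the pump genes was not tested.

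The lists around the pump went both ways in knockdown against nontargeting. Of 36 lysosomal genes tested, 3 were higher and 3 lower, with a median difference of -0.07, beside -0.02 over all probes. Against not transduced samples 0 were higher and 3 lower, with a median of -0.25, beside 6e-04 over all probes. Counts in this list and those for nutrient sensing, assembly and transporters are read against the shares over all probes. These were 10.3% higher and 10.8% lower against nontargeting, and 4.76% higher and 5.36% lower against not transduced samples. With so few genes none is a result about its list. The lysosomal membrane protein Lamp1 rose by 1.15 (SE 0.19, adjusted p = 0.00054) and progranulin (Grn) by 0.71 (SE 0.15, adjusted p = 0.0037), while the galactosidase Glb1 gave -0.67 (SE 0.16, adjusted p = 0.0069) and the lysosomal membrane protein Tmem192 -0.50 (SE 0.10, adjusted p = 0.0016). Lamp1 was itself low in nontargeting samples (-1.61 against not transduced, SE 0.19, adjusted p = 3.8e-05), and knockdown minus not transduced was -0.46 (SE 0.19, adjusted p = 0.15). Grn went the other way against the other groups: it was lower in knockdown than in not transduced samples (-0.64, SE 0.15, adjusted p = 0.014) and than in overexpression samples (-0.54, SE 0.15, adjusted p = 0.034), with nontargeting at -1.35 (SE 0.15) against not transduced. Lipa was lower in knockdown than in nontargeting (-0.57, SE 0.15, adjusted p = 0.018) and not transduced samples (-0.66, SE 0.13, adjusted p = 0.0057). It was also lower than in overexpression samples (-0.47, SE 0.13, adjusted p = 0.034).

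Of 16 genes of the TFEB family and lysosomal nutrient sensing, 1 was higher and 2 lower in knockdown than in nontargeting samples. Rraga, a Rag GTPase that acts with the pump in mTORC1 signalling, rose by 1.65 (SE 0.18, adjusted p = 1.4e-05) and Flcn, its regulator folliculin, gave -0.56 (SE 0.11, adjusted p = 0.0014). Rraga was within the spread of the not transduced samples in knockdown (0.08, SE 0.18, adjusted p = 0.84). Of 10 genes for assembly and regulation of the pump 1 was higher and 2 lower. The endosomal sorting nexin Snx10 gave -1.10 (SE 0.28, adjusted p = 0.012), but -0.33 (SE 0.28, adjusted p = 0.51) against not transduced. Rogdi was lower than in nontargeting (-0.51, SE 0.12, adjusted p = 0.0071) and in not transduced samples (-0.42, SE 0.13, adjusted p = 0.046). Against overexpression Rogdi gave -0.39 (SE 0.12, adjusted p = 0.051). The higher gene, Rilp, gave 0.69 (SE 0.16, adjusted p = 0.0061), but 0.13 (SE 0.16, adjusted p = 0.68) against not transduced. In that comparison 0 of the 10 genes were higher and 3 lower.

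Of 19 transporters that use or balance the gradient, 4 were higher and 2 lower in knockdown than in nontargeting, beside the same 10.3% and 10.8% over all probes. The vesicular GABA transporter Slc32a1, also an interneuron marker, was higher than in nontargeting samples (1.10, SE 0.21, adjusted p = 0.0015) and lower than in not transduced samples (-0.94, SE 0.21, adjusted p = 0.010). Clcn6, a late endosomal chloride-proton exchanger, and Sv2b, a synaptic vesicle protein, rose by 0.93 (SE 0.14, adjusted p = 0.00019) and 0.82 (SE 0.18, adjusted p = 0.0049). Both were also higher than in not transduced samples, by 0.89 (SE 0.14, adjusted p = 0.00089) and 0.79 (SE 0.18, adjusted p = 0.012). The 2 lower genes were Slc18a1 (-0.78, SE 0.11, adjusted p = 0.00015) and Clcn5 (-0.62, SE 0.20, adjusted p = 0.041). Against not transduced samples neither passed (0.33, SE 0.11, adjusted p = 0.071, and 0.24, SE 0.20, adjusted p = 0.51).

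Among genes outside the pump, the 5 most like Atp6v0d1 over its 13 measured samples were Ermp1, Marchf8, Uqcrb, Or6z5 and Oaz1, with Pearson r of 0.985 to 0.992 after the dye effect was removed. Ermp1, a protease of the endoplasmic reticulum, was lower in knockdown than in nontargeting by -2.74, close to the size for Atp6v0d1, and Marchf8, a ubiquitin ligase, by -2.32. The 5 most like Atp6v0a1 over 14 samples were Trib3, Hrk, Txnrd3, Or1e1e and Cnppd1 (r of 0.965 to 0.985). Trib3, a stress-induced pseudokinase, gave -0.71 in knockdown minus nontargeting and -1.22 in nontargeting minus not transduced, and Hrk, a pro-death BH3 protein, gave -0.97 and -0.55. These genes were picked for the likeness, and the samples share arrays and slides, so no test is given.

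Promoter sequences from RefSeq (GRCr8; windows of 300 bases around the start) were at hand for 7 of the 10 genes. The palindrome TCACGTGA, which holds the E-box CACGTG that TFEB-family factors bind, stood in the Atp6v0d1 promoter and in none of the other 6. Among the further genes it stood in the promoter of Atp6v0e1 alone of 14, a gene that passed no test here (knockdown minus nontargeting -0.0086, SE 0.17, adjusted p = 0.98). The stretch around it is shown for this match. The palindrome is in capitals, 53 to 46 bases before the start site.

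Atp6v0d1 promoter (GRCr8, chr19:50357249-50357361, minus strand): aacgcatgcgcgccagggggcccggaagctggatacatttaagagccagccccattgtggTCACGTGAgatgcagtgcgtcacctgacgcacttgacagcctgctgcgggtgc

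TCACGTGA occurred in 0.777% and CACGTG in 6.42% of all 33469 promoters of the same length, read on both strands since both are palindromes. The AP-1 motif TGANTCA, the site of Jun and Fos proteins, occurred in 7.33% of promoters, and among the pump genes in those of Atp6v0b and Atp6v1a, neither of which passed a test in any comparison.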

How the data were processed

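RNA of the 16 cultures was hybridised to Agilent 2-colour rat arrays. The authors deposited scanner intensity values per spot, made with Agilent Feature Extraction 10.7.3.1 per the submitters' processing notes, and a matrix of log2 values. Set against the scanner files, the deposited log2 values equalled the background-subtracted median signal, centred on each sample's median. A description field that names another tissue contradicts the culture protocol and was not used.

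Here, mean signals were background-corrected (normexp, offset 50), normalized by loess within arrays and by Aquantile between them (limma 3.58.1, R 4.3.3). A spot that the scanner software marked as an outlier was treated as missing in that dye. Of 41012 probes, 27294 were tested: those well above background in at least 4 samples, with at least 12 values and 2 per group. The model held group and dye, with the array as a random block (correlation 0.562). P-values were adjusted by Benjamini-Hochberg over all tested probes, with a threshold of 0.05, and intervals are 95% intervals of the fit. The script was tested on simulated data. Genes most like a subunit were the 5 with the highest Pearson r after the dye effect was removed.

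The genes, lists and markers were chosen with earlier results of these data known. All tested probes of the 10 genes are reported, further subunits are counted and named where they passed, and list genes were named from those that passed the test. Alternatives covered background correction, normalization, filters, flags, blocks and leaving out each sample.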

Additional observations from a re-analysis of the deposited data

Results flagged for a closer look

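In 2 of the 50 groups of 4 values among the 15 probes of the 10 genes (the further subunits were not examined in this way), 1 sample lay apart from the other 3 by more than Dixon's 95% critical value for 4 samples, and chance alone gives about 1 in 20 such groups. At the Atp6v1a probe A_44_P305073, overexpression replicate 2 read 13.08 on the log2 scale, above the other overexpression samples. At the Atp6v1h probe A_44_P159296, knockdown replicate 3 read 9.38, above the other knockdown samples. Neither probe passed the test in any comparison.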

How the results depend on the processing

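The differences that were called, or that chose the genes, were 24 in number and gave 671 values under the alternatives, of which 609 kept their side of the threshold or stayed within the replicate spread, 53 lost their call, 9 moved by more than the spread and 0 changed sign. Differences that were not called did change sign in places, such as Atp6v0c in knockdown minus overexpression under 7 of 28 settings and Atp6v0e1 in knockdown minus nontargeting under 6 of 29. In knockdown minus nontargeting, 1 pump probe other than those of Atp6v0d1 and Atp6v0a1 passed as fitted. This became 2 with quantile normalization (with or without loess) and with no filter on dim probes, 0 with the dyes of an array averaged, 6 without the array block and 5 with a replicate block, and 0 to 3 when 1 sample was left out (3 without nontargeting replicate 1, and 0 without knockdown replicate 1 or 4, overexpression replicate 1 or not transduced replicate 3). In knockdown minus not transduced, 1 passed as fitted, 0 in the deposited matrix or with dyes averaged, 2 without the array block and 0 to 1 when 1 sample was left out. In knockdown minus overexpression the count was 0 as fitted, 1 without the array block or with a replicate block, and 0 to 1 when 1 sample was left out. With Atp6v0a1 counted, overexpression minus nontargeting gave 6 as fitted and 2 in the deposited matrix (1 higher and 1 lower). Nontargeting minus not transduced then gave 7 as fitted and 4 in the deposited matrix or with dyes averaged. Without Atp6v0a1 and Atp6v0d1 the counts as fitted were 4 and 5. Atp6v0a1 was chosen on its levels, so counts that hold it compare settings only and are no result about the pump. The cause of the shifts between settings was not tested. Same-numbered samples share a dye, and with the dye removed the correlation of their deviations ran from 0.0589 to 0.149 between knockdown and nontargeting, so the numbers were not taken to pair samples. The replicate block gave 7 and 8 calls in the last 2 comparisons, again with Atp6v0a1 counted. Atp6v0d1 ranged from -2.94 (scanner processed signal) to -2.16 (flagged spots kept) in knockdown minus nontargeting. Flagged spots left 2 nontargeting values of Atp6v0d1 and 2 not transduced values of Atp6v0a1, which limits both.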
